A study of Homo sapiens with 4 samples.

Results

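The expression of 10 genes of the DNA methylation cycle was examined in the MDS-L cell line and its resistant derivative MDS-L/CDA, with and without 5-azacytidine (AZA). The genes were the methyltransferases DNMT1, DNMT3A and DNMT3B with their partner DNMT3L, the ubiquitin ligases UHRF1 and UHRF2, the dioxygenases TET1, TET2 and TET3, and the glycosylase TDG. They were chosen by gene name from the design of an Agilent expression array, with every probe of each gene kept, which gave 10 of 43311 gene names and 22 of 58185 probes. MDS-L is a human cell line that was set up from myelodysplastic syndrome (MDS) cells. MDS-L/CDA cells were derived from it by transduction of CDA, a deaminase that acts on cytidine analogues, and are resistant to AZA. Whether MDS-L/CDA is a single clone is not given in the sources used here. Each line was kept for 72 h with AZA at 1 μM or with the vehicle, 0.1% DMSO, and RNA of each of the 4 conditions was hybridized to 1 array. There are no replicates, so no test was possible and every comparison is between 2 arrays. One label field names the other treatment for 2 of the arrays, MDS-L AZA and MDS-L/CDA vehicle, and some fields give the dose in mM. The treatment in the titles, descriptions and source names was used, and the direction of each comparison rests on it.

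DNMT1 copies the methylation pattern onto the new DNA strand at replication, and UHRF1 brings it to hemimethylated sites. DNMT3A and DNMT3B set new marks, with DNMT3L as a partner that has no catalytic activity of its own. TET enzymes oxidize 5-methylcytosine, and TDG excises the oxidized products, which base excision repair then replaces with cytosine. AZA is a cytidine analogue whose deoxy form, once in DNA, traps the methyltransferases covalently. DNMT3A and TET2 are among the genes most often mutated in MDS.

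The signal of each gene is the brightness of 60-base probes that its transcript binds. The probes on which the results turn are shown here by their first 30 bases, in lower case and with no base marked, with their hg19 positions as the array files give them. Several probes of 1 gene are shown because they read different ends or transcript variants of it and did not always move together. Exon and UTR status was not annotated here, and the start in the transcript is given instead.
DNMT1, transcript variant 1, start 5339, chr19:10244023-10244082: agactttatgtagtttttatatgttgtaat
UHRF1, transcript variant 2, start 4151, chr19:4962065-4962124: tgtattagggaagaatgagacaattttgtg
UHRF1, transcript variant 3, start 3038, chr19:4960895-4960954: ggcttaacttaaacaggtagtgtttcctcc
DNMT3A, transcript variant 1, start 3750, chr2:25456415-25456474: agggagacgagaacaccacacaagacattt
DNMT3A, transcript variant 4, start 1642, chr2:25504394-25504453: caaaaagtcttccttccaagcgtgtatgat
DNMT3B, transcript variant 6, start 4156, chr20:31397064-31397123: aactgtgccttgtttcaacagtttttgcta
TET1, start 8860, chr10:70453516-70453575: ttactagtattagactatcaggaatacacc
TET1, start 481, chr10:70332072-70332131: ttcattttttcctactctgtagctatgtct

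The processed signal of each array was divided by the 75th percentile of that array, and all levels below are multiples of it. That percentile was 52.5 and 52.9 on the vehicle and AZA arrays of MDS-L, and 40.8 and 37.3 on those of MDS-L/CDA. Between 32.6% and 36.5% of all probes were well above background by the flag of the scanner software. For genes with several probes, the one above background on most arrays, and of these the brightest, is described first. The only error available is the spread between spots of 300 probes printed 10 times on each array. It is given after each log2 ratio as the technical SD of probes of like brightness, and leaves out variation of hybridization and of culture. In RNA from whole cultures, fewer cells that express a gene and less of its RNA per cell cannot be told apart. The RefSeq table for GRCh38.p14 lists pseudogenes named after DNMT3A, TET1, UHRF2 and TDG, and whether these probes also bind their transcripts was not tested.

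The arrays carried markers of myeloid progenitor cells. Of 10 such markers, 8 or 9 were well above background on each array, among them CD34, CD33 and IL3RA, while MPO was not on any. Summed over the markers that passed the flag, as for the other marker lists, the scaled signal ran from 151.6 to 165.9. KIT, the stem cell factor receptor, differed within the list, at 0.503 with vehicle and 23.8 with AZA in MDS-L cells, and 0.346 and 1.24 in MDS-L/CDA cells. The other way, HLA-DRA gave 5.55, 1.82, 4.02 and 1.93 on the same arrays and CD38 gave 23.5, 8.43, 25.8 and 18.7, so both were more than 2-fold lower with AZA in MDS-L cells and HLA-DRA also in MDS-L/CDA cells. Of 5 erythroid and megakaryocytic markers, 4 were above background in MDS-L AZA and 1 or 2 on the other arrays, and their sum was 9.98, 26.3, 14.3 and 22.4 in the same order. Of 6 lymphoid markers, 2 or 3 were above background, with MS4A1, CD3E and CD8A below it throughout, and sums between 14.5 and 17.3. Of 6 fibroblast and epithelial markers, KRT18 alone was above background, with sums between 3.02 and 4.49. The part of these markers in the results below was not tested. The CDA probe was below background on all 4 arrays, with processed signals between 4.48 and 5.53, and whether it lies in the transduced sequence was not tested.

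AZA-treated MDS-L cells had the lowest signal of the 4 arrays for DNMT1, UHRF1, UHRF2, DNMT3B and TET1, under every scaling tried. By the first probe of each gene, UHRF1 and DNMT3B were more than 2-fold lower with AZA than with vehicle in MDS-L cells, and no measured gene was 2-fold different between AZA and vehicle in MDS-L/CDA cells. Both calls were lost under quantile normalization, where the log2 ratios were -0.98 for UHRF1 and -0.88 for DNMT3B, and in the value table of the authors, while both ratios stayed below 1 under every scaling. DNMT3L did not pass the background flag on any array, and TET3 passed it on 1 only, so 8 of the 10 genes had a ratio in each comparison. Of these 8 genes, 2 were at least 2-fold lower with AZA in MDS-L cells and 0 at least 2-fold higher, where 5.89% of all 15108 genes measured were 2-fold lower and 4.42% 2-fold higher. In MDS-L/CDA cells, 0 of 8 were 2-fold lower and 0 were 2-fold higher, where 2.82% and 2% of the 14143 genes measured were. The plot of every probe shows these levels.

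**Figure D1:**
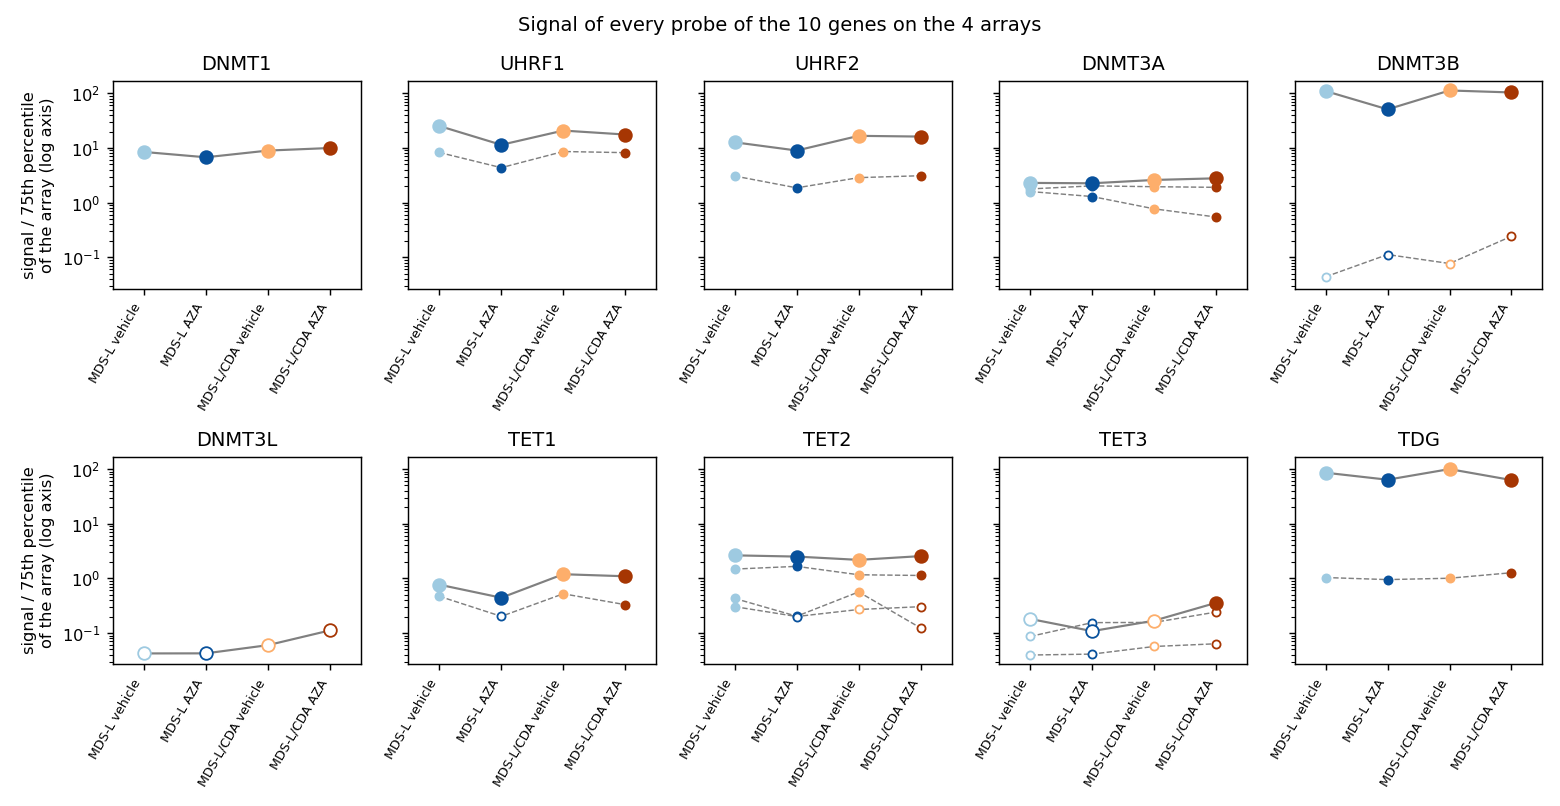
Scaled signal (multiples of the 75th percentile of the array, log axis) of each of the 22 probes on the 4 arrays, 1 panel per gene. Large circles on solid lines are the probe described first, small circles on dashed lines the other probes, and open circles are signals not well above background. The MDS-L AZA array is lowest for DNMT1, UHRF1, UHRF2, DNMT3B and TET1, and DNMT3L is below background on every array.

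Among the maintenance genes, DNMT1 itself differed least with AZA in MDS-L cells. Its only probe gave 8.46 with vehicle and 6.76 with AZA in MDS-L cells, and 8.96 and 9.98 in MDS-L/CDA cells. The signal was lowest in AZA-treated MDS-L cells and highest in AZA-treated MDS-L/CDA cells. The AZA/vehicle ratio was 0.799 for MDS-L cells (log2 -0.32, technical SD 0.34) and 1.11 for MDS-L/CDA cells (log2 0.16, technical SD 0.42). Neither ratio was further from 1 than the technical SD. Of all probes measured on both MDS-L arrays, 35.6% had a ratio as low as that of DNMT1.

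UHRF1, the reader of hemimethylated DNA that recruits DNMT1, had a lower signal with AZA at both of its probes in MDS-L cells. The first probe gave 25.2 with vehicle and 11.4 with AZA in MDS-L cells, and 20.8 and 17.6 in MDS-L/CDA cells. The AZA-treated MDS-L array stood below the other 3 arrays. Its AZA/vehicle ratio was 0.453 for MDS-L cells (log2 -1.14, technical SD 0.28), and 4.15% of all probes measured on both arrays had a ratio as low. In MDS-L/CDA cells the ratio was 0.847 (log2 -0.24, technical SD 0.35), which lies within the technical SD of no difference. The other UHRF1 probe gave 8.27, 4.36, 8.62 and 8.21 on the same arrays in that order. It showed the same order for AZA and vehicle in MDS-L cells, with a log2 ratio of -0.92 and a technical SD of 0.36, which does not reach 2-fold, and a log2 ratio of -0.07 in MDS-L/CDA cells.

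UHRF2, a paralogue of UHRF1 with the same domains, was also lower with AZA in MDS-L cells, by less than 2-fold. Its first probe gave 12.7 with vehicle and 8.98 with AZA in MDS-L cells, and 16.7 and 16.2 in MDS-L/CDA cells. Its other probe, which lies near the opposite end of the transcript, gave 3.07, 1.86, 2.87 and 3.11. At both probes the AZA-treated MDS-L array was the lowest. The log2 AZA/vehicle ratios in MDS-L cells were -0.50 with a technical SD of 0.32 and -0.72 with a technical SD of 0.35. In MDS-L/CDA cells they were -0.04 and 0.12, both within the technical SD.

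The de novo methyltransferases differed from each other. DNMT3B gave 109.9 with vehicle and 50.9 with AZA in MDS-L cells, and 112.7 and 103.6 in MDS-L/CDA cells. The AZA-treated MDS-L array lay well below the other 3, which were close together. The AZA/vehicle ratio was 0.463 for MDS-L cells (log2 -1.11, technical SD 0.21), and 4.55% of all probes measured had a ratio as low. In MDS-L/CDA cells it was 0.920 (log2 -0.12, technical SD 0.28). A further DNMT3B probe, designed to the mRNA of an isoform 6 variant, stayed below the background flag throughout.

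DNMT3A showed no such difference at the probes for transcript variant 1. The first of them gave 2.30 with vehicle and 2.26 with AZA in MDS-L cells, and 2.60 and 2.79 in MDS-L/CDA cells, and the other gave 1.78, 2.03, 1.96 and 1.91. The 4 log2 AZA/vehicle ratios of these probes lay between -0.04 and 0.19, each within its technical SD, and 3 of the 4 change sign under other scalings. The probe for transcript variant 4, which lies nearer the start of the gene, differed between the lines. It gave 1.60 with vehicle and 1.29 with AZA in MDS-L cells, and 0.771 and 0.546 in MDS-L/CDA cells, with log2 AZA/vehicle ratios of -0.30 and -0.50 and technical SDs of 0.36 and 0.47. Both MDS-L/CDA arrays lay below both MDS-L arrays. DNMT3L, the partner without catalytic activity, stayed below the background flag on all arrays with processed signals between 2.22 and 4.15, so no ratio is given.

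TET1, a dioxygenase that acts on methylated CpG sites, had a range over the 4 arrays of 1.43 on the log2 scale, the widest of the 8 genes measured at the scaling used, although under median scaling, without scaling and under normexp UHRF1 and DNMT3B had wider ones. Its first probe gave 0.766 with vehicle and 0.442 with AZA in MDS-L cells, and 1.19 and 1.09 in MDS-L/CDA cells. Both MDS-L/CDA arrays lay above both MDS-L arrays. The log2 AZA/vehicle ratio was -0.79 in MDS-L cells with a technical SD of 0.38, and 10.4% of all probes were as low, but it was -0.31 under normexp. It was -0.12 in MDS-L/CDA cells with a technical SD of 0.48. The other TET1 probe, near the start of the transcript, gave 0.470, 0.202, 0.522 and 0.330, and did not pass the background flag in AZA-treated MDS-L cells. In MDS-L cells it was 2.33-fold lower with AZA, as the plain ratio to a signal below the flag, with no technical SD computed. Its log2 ratio in MDS-L/CDA cells was -0.66 with a technical SD of 0.47. These signals are dim, and the lowest processed signal well above background was between 9.98 and 11.1, against 23.4 for the first TET1 probe on the MDS-L AZA array.

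TET2, the TET gene most often mutated in MDS, differed little with AZA at the probes that were above background on all arrays. The first gave 2.63 with vehicle and 2.50 with AZA in MDS-L cells, and 2.18 and 2.55 in MDS-L/CDA cells, and the other gave 1.48, 1.66, 1.16 and 1.13. Their log2 AZA/vehicle ratios were -0.07 and 0.17 in MDS-L cells and 0.23 and -0.04 in MDS-L/CDA cells, each within its technical SD, and those in MDS-L cells change sign under other scalings. The probe for transcript variant 2 was above background in both vehicle conditions and in neither AZA condition, with 0.429 in MDS-L vehicle and 0.564 in MDS-L/CDA vehicle. In MDS-L cells it was 2.11-fold lower with AZA, as the plain ratio to a signal below the flag. In MDS-L/CDA cells it was 1.91-fold lower when the lowest signal above background stood in for the AZA signal. Both folds start from processed signals, 22.5 and 23.0, that are close to the floor, and neither allows for spot noise. The remaining TET2 probe was above background in MDS-L vehicle only. Of the 3 TET3 probes, 1 was above background, on the MDS-L/CDA AZA array, at a processed signal of 13.3.

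TDG, the glycosylase that removes oxidized methylcytosine, was lower with AZA in both lines at its first probe. Its first probe gave 85.5 with vehicle and 63.7 with AZA in MDS-L cells, and 99.6 and 62.8 in MDS-L/CDA cells. Both AZA arrays lay below both vehicle arrays. The log2 AZA/vehicle ratio was -0.42 for MDS-L cells (technical SD 0.22) and -0.67 for MDS-L/CDA cells (technical SD 0.32). Of all probes measured on both MDS-L/CDA arrays, 7.40% were as low. The other TDG probe gave 1.04, 0.949, 1.00 and 1.27, with log2 ratios of -0.13 in MDS-L and 0.34 in MDS-L/CDA cells, so the probes disagreed on the direction in MDS-L/CDA cells.

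**Figure D2:**
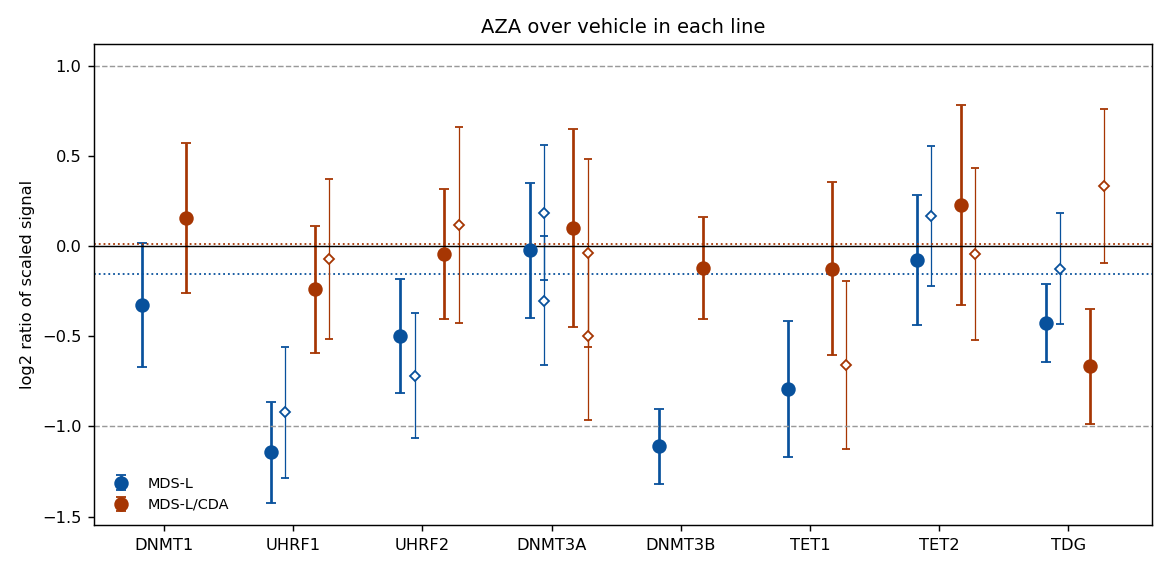
Log2 ratio of the scaled signal, AZA over vehicle, for the 8 measured genes in MDS-L (blue) and MDS-L/CDA (brown) cells. Circles are the probe described first, open diamonds the other probes above background on both arrays, bars 1 technical SD between spots in each direction, dotted lines the median of all genes and dashed lines 2-fold. UHRF1 at -1.14 and DNMT3B at -1.11 lie beyond 2-fold in MDS-L cells, and no probe does in MDS-L/CDA cells.

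The ratios in MDS-L cells were read against a shift of the whole array. The median log2 ratio of all genes was -0.16 in MDS-L and 0.01 in MDS-L/CDA cells, and the scalings placed it between -0.70 and -0.04 in MDS-L cells. The median of the 8 genes was -0.46 in MDS-L and -0.08 in MDS-L/CDA cells. With AZA, all 8 were below 1 in MDS-L cells, as were 62.3% of all genes, and 6 of 8 lay below the median of all genes. Relative to that median, the log2 ratio was -0.99 for UHRF1, -0.96 for DNMT3B, -0.64 for TET1, -0.34 for UHRF2, -0.27 for TDG and -0.17 for DNMT1. It was 0.08 for TET2 and 0.13 for DNMT3A. Under the quantile normalization, 0 of 8 genes were 2-fold lower in MDS-L cells. Under scaling to the median of each array 4 were, where 25.8% of all genes were, so the count of 2 depends on the scaling. UHRF1 and DNMT3B stood ahead of DNMT1 in every setting. Scaling by a single factor per array cannot change that order. Only quantile normalization, normexp, the value table of the authors and the keeping of outlier-flagged spots could have changed it.

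The AZA ratio of MDS-L cells minus that of MDS-L/CDA cells was computed for each gene, to set the response of the resistant line beside that of its parent. The difference was -0.99 for DNMT3B (technical SD 0.35), -0.90 for UHRF1 (technical SD 0.45) and -0.67 for TET1 (technical SD 0.61), all as log2 values. The other UHRF1 probe gave -0.85 with a technical SD of 0.57. Of the 17809 probes above background on all 4 arrays, 6.55% were as low as DNMT3B, 8.34% as low as the first UHRF1 probe and 15.6% as low as the first TET1 probe. Over the settings the TET1 difference lay between -1.15 and -0.21, and the latter is within the technical SD. The difference at the first probe was -0.48 for DNMT1, -0.45 for UHRF2, -0.30 for TET2, -0.12 for DNMT3A and 0.24 for TDG, each within its technical SD, and the signs of DNMT3A and TDG turn under other settings. The other UHRF2 probe gave -0.83 with a technical SD of 0.65, and 10.1% of all probes were as low. For DNMT3A, TET2 and TDG the probes disagreed on the sign. The other variant 1 probe of DNMT3A gave 0.22, its variant 4 probe 0.19, the other TET2 probe 0.21 and the other TDG probe -0.46, each within its technical SD. The median by first probes was -0.47 over the 8 genes and -0.15 over 13967 genes, of which 62.8% were negative beside 7 of the 8. With 1 array per condition the difference could not be tested.

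Between the lines in vehicle, the 8 genes differed by less than 2-fold. The log2 ratio of MDS-L/CDA over MDS-L cells was between -0.28 for UHRF1 and 0.64 for TET1, with a median of 0.13 beside 0.09 over 14515 genes. None of the 8 was 2-fold higher or lower, where 1.58% and 2.17% of all genes were. TET1 was 1.55-fold higher in MDS-L/CDA cells, with a technical SD of 0.36 on the log2 scale, and 6.33% of all probes were as high, while its other probe gave a log2 ratio of 0.15. The sign of the ratio turned under another scaling for DNMT1, DNMT3A, DNMT3B, UHRF2 and TDG, and did not for TET1, TET2 and UHRF1, although the other UHRF1 probe and the other TET1 probe changed sign. The TET2 probes disagreed. The first gave -0.28 (technical SD 0.42) and the other one above background on all arrays -0.35 (technical SD 0.38). The variant 2 probe gave 0.40 (technical SD 0.35), and its sign turned under median scaling.

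One probe outside that count stood apart between the lines. The DNMT3A variant 4 probe had a MDS-L/CDA over MDS-L ratio of 0.483 in vehicle (log2 -1.05, technical SD 0.36) and 0.422 with AZA (log2 -1.25, technical SD 0.47). In vehicle 1.98% of all probes were as low, and with AZA 2.24%. The probe was lower in MDS-L/CDA cells under every scaling, with log2 ratios in vehicle between -1.57 and -0.53. The variant 1 probes gave 0.18 and 0.14 in vehicle and 0.30 and -0.09 with AZA. The probes of 1 gene thus gave different line ratios, and the variant 4 probe was singled out after its values were seen.

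With AZA, more of the genes were higher in MDS-L/CDA than in MDS-L cells. These ratios share arrays with the comparisons above and are not independent of them. DNMT3B was 2.04-fold higher (log2 1.03, technical SD 0.27) and TET1 2.47-fold higher (log2 1.30, technical SD 0.49). The log2 ratio of DNMT3B lay between 0.52 and 1.02 under the other scalings and value sources and fell short of 2-fold in all of them but the one that kept outlier-flagged spots. That of TET1 lay between 0.49 and 1.38, and under normexp, which gave the 0.49, it was within the technical SD. So 2 of 8 genes were 2-fold higher and 0 were 2-fold lower, where 5.31% and 3.9% of 14547 genes were. The log2 ratio was 0.85 for UHRF2 (technical SD 0.37), 0.63 for UHRF1 (0.37) and 0.56 for DNMT1 (0.40), and the other UHRF1 probe gave 0.91 (0.44). Of all probes, 9.42%, 19.3% and 23.3% were as high as the first probes of UHRF2, UHRF1 and DNMT1. Over the settings these ratios lay between 0.34 and 0.85 for UHRF2, 0.12 and 0.63 for UHRF1, and 0.06 and 0.56 for DNMT1. The scaling used thus gave the highest value, and the lowest was within the technical SD for each. The log2 ratio was 0.30 for DNMT3A, 0.03 for TET2 and -0.02 for TDG at the first probe, each within its technical SD, and the first 2 change sign under other scalings. Beyond its technical SD were the other TET2 probe at -0.55 (technical SD 0.48) and the other TDG probe at 0.42 (technical SD 0.40). The median of the 8 genes was 0.59 and that of all genes 0.23.

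**Figure D3:**
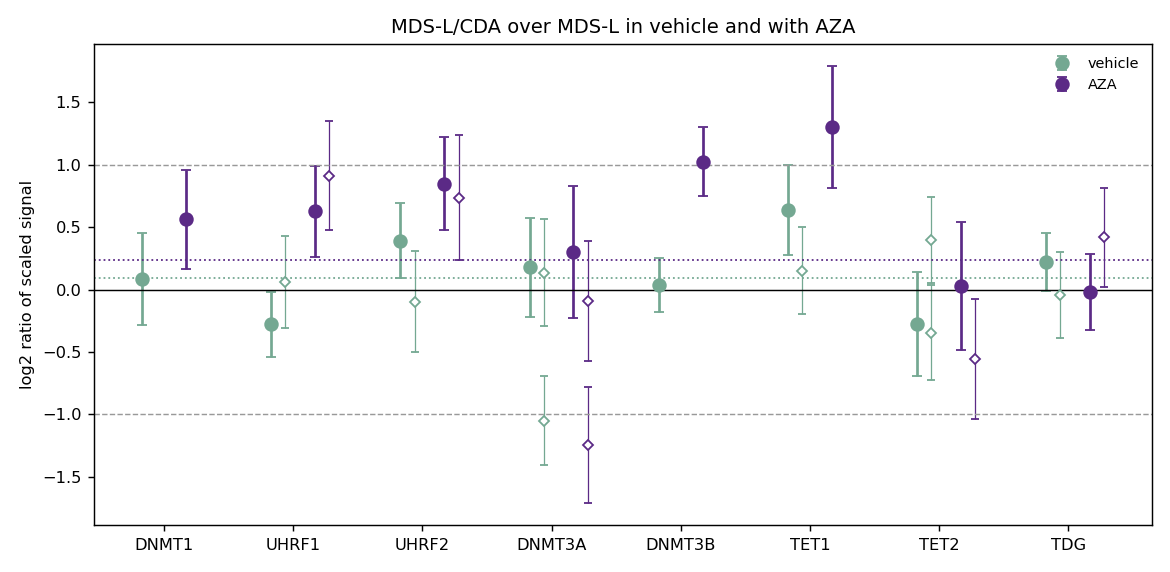
Log2 ratio of the scaled signal, MDS-L/CDA over MDS-L, for the 8 measured genes in vehicle (green) and with AZA (purple). Circles, diamonds, bars, dotted and dashed lines are as in the plot of AZA ratios. DNMT3B at 1.03 and TET1 at 1.30 lie beyond 2-fold with AZA, and the DNMT3A variant 4 probe, at -1.05 and -1.25, lies below 2-fold in both.

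Genes that work with these enzymes were summarized in 6 lists, whose medians stand beside an all-gene median of -0.16 for MDS-L and 0.01 for MDS-L/CDA cells. Some genes are on more than 1 list, and the repair and DNMT partner lists each overlap the S phase list. The lists are therefore not separate observations. The list of DNMT partners and maintenance factors had 18 of 19 genes measured, and in MDS-L cells their median log2 ratio with AZA was -0.37, where 16 were below 1 and 2 at least 2-fold lower. Of all genes, 62.3% were below 1 and 5.89% at least 2-fold lower, and 11 of the 18 lay below the median of all genes. Under quantile normalization 11 of the 18 were below 1. For MDS-L/CDA cells the list's median was -0.07, and 0 were 2-fold different. The 2 genes were CDCA7, which works with the remodeler HELLS in DNA methylation, and its relative CDCA7L. CDCA7 gave 159.1 with vehicle and 52.1 with AZA in MDS-L cells, and 148.5 and 107.1 in MDS-L/CDA cells, and CDCA7L gave 49.6, 18.5, 69.5 and 42.0. Both were lower with AZA in both lines, with log2 ratios of -1.61 and -1.43 in MDS-L cells and -0.47 and -0.73 in MDS-L/CDA cells. HELLS itself had log2 ratios of -0.79 and -0.36.

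The methyl-CpG readers, which bind the finished mark, had medians of 0.05 over 9 genes in MDS-L cells and -0.09 over 8 in MDS-L/CDA cells, with 0 genes past 2-fold, and 4 of the 9 lay below the median of all genes in MDS-L cells. The TET cofactors and regulators had 11 genes measured, medians of -0.18 and -0.06, 6 genes below the median of all genes in MDS-L cells, and 1 gene 2-fold lower there. It was IDH1, which makes the 2-oxoglutarate that TET enzymes consume. IDH1 gave 26.3 with vehicle and 8.54 with AZA in MDS-L cells, and 21.9 and 12.6 in MDS-L/CDA cells, with log2 ratios of -1.62 and -0.79.

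The base excision repair genes that act after TDG had medians of -0.28 over 13 genes in MDS-L cells, of which 7 lay below the median of all genes, and 0.03 over 12 in MDS-L/CDA cells. The glycosylase NEIL1 was the only one of them past 2-fold, 2.14-fold higher with AZA than with vehicle in MDS-L cells, where 4.42% of all genes were 2-fold higher. Its signals there were dim, at 0.401 with vehicle and 0.860 with AZA. The call was lost under median scaling, normexp and the Z score. The genes of S-adenosylmethionine supply, the methyl donor of the DNMT reaction, had 14 genes measured and medians of -0.22 and -0.10, with 10 genes below the median of all genes in MDS-L cells. Of these, ADK, the kinase that clears adenosine from the methylation cycle, was 2-fold lower in MDS-L cells at a log2 ratio of -1.44. ADK was also lower with AZA in MDS-L/CDA cells, at -0.73.

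S phase genes, which serve DNA replication, were lower with AZA beside UHRF1 and DNMT3B in MDS-L cells. All 40 genes of the list were measured, and in MDS-L cells all 40 had an AZA/vehicle ratio below 1, with a median log2 ratio of -0.71 and 7 genes at least 2-fold lower. Of all genes measured in MDS-L cells, 62.3% were below 1 and 5.89% at least 2-fold lower. The number of S phase genes below 1 was between 37 and 40 under the other scalings, and 36 to 39 genes of the list lay below the median of all genes. For MDS-L/CDA cells the list's median was 0.01, with 19 genes below 1. The summed scaled signal of the list was 3761 with vehicle and 2357 with AZA in MDS-L cells, and 4685 and 4477 in MDS-L/CDA cells. Among these were CHAF1A, GINS1, GINS3, MCM3, RFC2 and MCM6, with log2 ratios between -1.46 and -1.05. CHAF1A and POLA2 were 2-fold higher with AZA in MDS-L/CDA cells, at 1.21 and 1.37, where 2% of all genes were 2-fold higher. UHRF1 and DNMT1 are transcribed mostly in dividing cells, and the part of S phase cells in the ratios of the methylation genes was not tested.

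**Figure D4:**
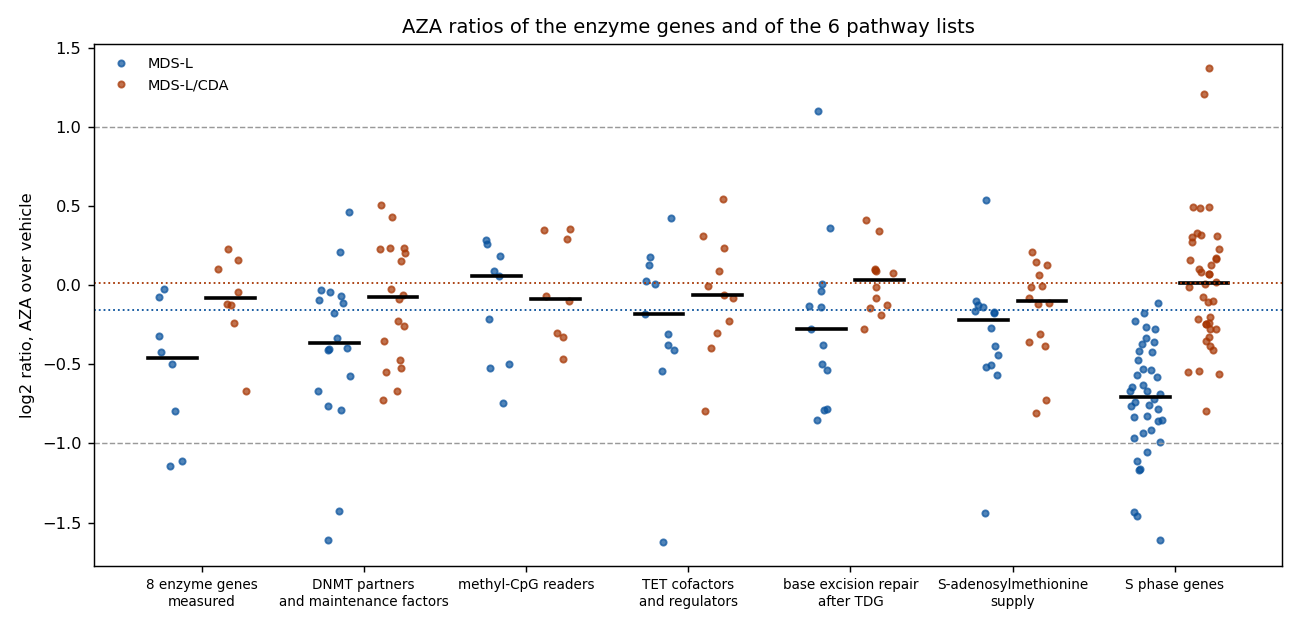
Log2 AZA/vehicle ratio of each measured gene in MDS-L (blue) and MDS-L/CDA (brown) cells, for the 8 enzyme genes and the 6 pathway lists. Black bars are medians, dotted lines the median of all genes in each line and dashed lines 2-fold. The S phase genes have medians of -0.71 and 0.01, and the enzyme genes -0.46 and -0.08.

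The genes whose pattern over the 4 arrays was closest to DNMT1 and to TET1, the gene of widest range at the scaling used, were found by the Euclidean distance of centred log2 signals over 13966 other genes. With only 4 arrays, many genes lie near any pattern, and the distance describes likeness only. NAP1L4, ODF2, LOC93622, STPG1 and DDX18 were nearest to DNMT1, at distances between 0.02 and 0.03. Of the other enzymes, DNMT3A was nearest to DNMT1, at 0.23, with 11.1% of all genes nearer. For TET1 the nearest genes were PRKAR2B, LOXL1-AS1, DUSP4, TNNI3 and PPP1R16A, at 0.02 to 0.11. UHRF2 and DNMT3B were the enzymes nearest to TET1, at 0.41 and 0.49, with 2.67% and 5.08% of all genes nearer.

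UHRF1, which was lower in AZA-treated MDS-L cells beside the S phase genes, is shown with its promoter because E2F factors are regulators of S phase genes. It was picked for display after its ratio was seen, and a part of E2F factors in that ratio was not tested. The RefSeq promoters of GRCh38.p14 were searched on both strands, in the 250 bases before each start, for TTTCGCGC, TTTGGCGC and CCAAT, which do not overlap each other in the sequences shown. TTTCGCGC is in 0.439% and TTTGGCGC in 0.550% of 35116 promoters, and CCAAT in 32.0%. Of the enzyme genes, 9 have promoters in the table. Among these, TTTCGCGC was found at 1 of the 3 UHRF1 starts only, and TTTGGCGC at none. DNMT3B, which was also lower in AZA-treated MDS-L cells, had neither string. Other forms of E2F site were not searched for, so their absence from the other starts is not shown. The UHRF1 match is in this sequence of chr19:4909894-4910143 on the plus strand, where capitals mark TTTCGCGC and the CCAAT boxes.
UHRF1 promoter: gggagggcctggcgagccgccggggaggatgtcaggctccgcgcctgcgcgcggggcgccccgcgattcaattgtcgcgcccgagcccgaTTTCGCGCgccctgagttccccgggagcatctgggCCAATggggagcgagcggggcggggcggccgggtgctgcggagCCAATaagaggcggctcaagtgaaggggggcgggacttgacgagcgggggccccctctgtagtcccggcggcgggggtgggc
A match describes these letters only, and says nothing of whether a factor bound there. The stretch holds 32 CpG sites, and 9.52% of all promoters hold as many. No methylation was measured in these data.

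**Figure D5:**
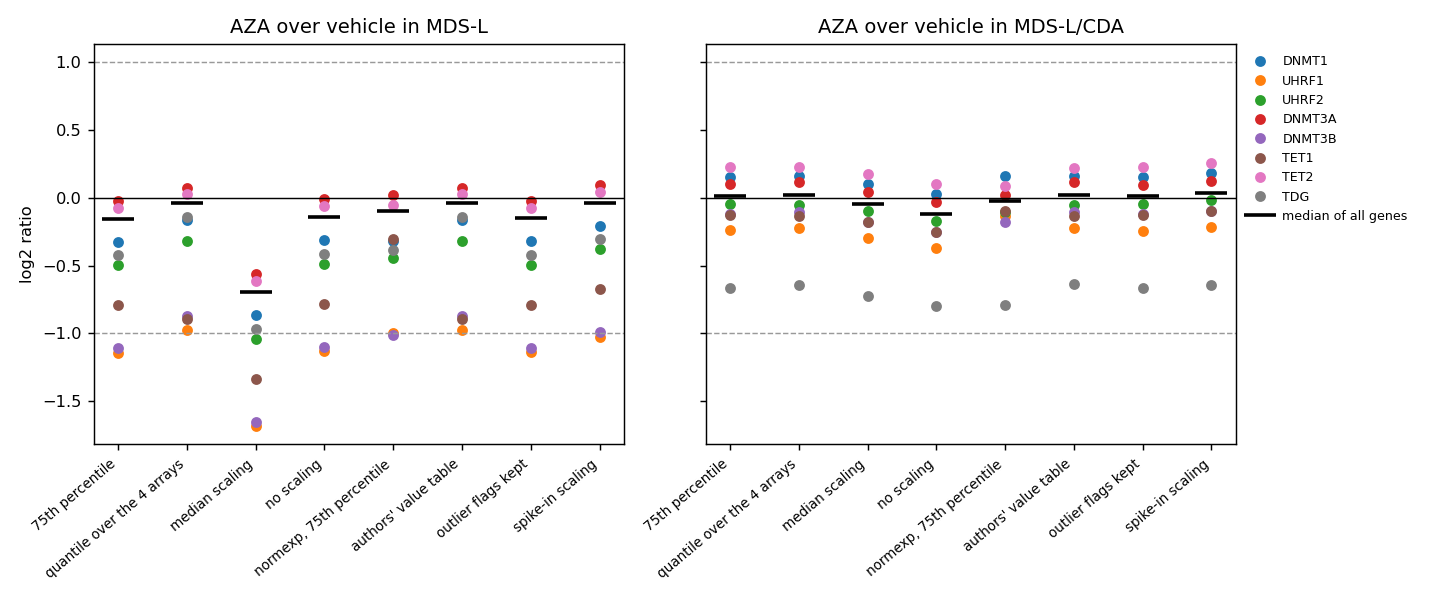
Log2 AZA/vehicle ratio of the 8 enzyme genes under each scaling or value source, in MDS-L (left) and MDS-L/CDA (right) cells. Black marks are the median of all genes, and dashed lines are 2-fold. Scaling by a single factor per array moves all genes of a line together and cannot change their order. The MDS-L median lies between -0.70 and -0.04, and UHRF1 and DNMT3B stay below DNMT1 in MDS-L cells in every setting.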

How the data were processed

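RNA of 4 conditions, 1 array each on 1 slide, was measured with a single dye. The authors deposited scanner files from Agilent Feature Extraction 10.7.1.1, whose intensity values are background-subtracted but not scaled between arrays, and a table of intensity for 51680 probes, whose columns once sorted lie within 0.0391 of each other as log2 values. After control spots and outlier-flagged spots were dropped, which lost 16 probes, the mean log2 signal of each probe was taken and the array's 75th percentile subtracted. A ratio is given where both arrays were well above background. Where 1 was, the other was set to the higher of its own signal and the lowest signal above background, and the fold is called a bound. It makes no allowance for spot noise, and it is the plain ratio where the probe's own signal was the higher. The threshold of 2-fold follows the ratio in the methods of the study, and its Z score, whose formula is not stated, was an alternative with 10 bins. Counts use 1 probe per gene. The number of arrays limits the precision.

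The 10 genes and all lists were chosen with earlier results of these data known. All 10 are named, with list genes past 2-fold in either line, HELLS as the partner of CDCA7, CDA, and the 5 genes nearest in pattern to DNMT1 and to the gene of widest range. Genes are named as the array files name them. The values of 1 list gene past 2-fold are not reported here. The calling step was tested on simulated data. The tools were Python 3.11.15 with numpy 2.4.6, pandas 2.3.3 and matplotlib 3.10.9, and for normexp (offset 50) limma 3.58.1 in R 4.3.3. There were 7 alternatives to the values, 1 of them (scaling to 7 spike-in probes) chosen after seeing the data, and 6 to the counts.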

Additional observations from a re-analysis of the deposited data

Results flagged for a closer look

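At the first probe, DNMT1, DNMT3A and TET2 had AZA ratios of opposite sign in the 2 lines, below 1 in MDS-L cells and above 1 in MDS-L/CDA cells. The log2 ratio in MDS-L cells minus that in MDS-L/CDA cells was -0.48 for DNMT1, -0.12 for DNMT3A and -0.30 for TET2. Each is within its technical SD (0.54, 0.66 and 0.66), and the difference was not tested. Under the alternatives the difference lay between -0.97 and -0.33 for DNMT1, -0.61 and 0.02 for DNMT3A, and -0.79 and -0.14 for TET2. Other probes ran the reverse way, with log2 ratios of 0.19 in MDS-L and -0.04 in MDS-L/CDA cells for the other variant 1 probe of DNMT3A and 0.17 and -0.04 for the other TET2 probe. Under quantile normalization the ratios of DNMT3A and TET2 in MDS-L cells were above 1, at log2 values of 0.07 and 0.03, so the opposite signs were lost for these genes.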

How the results depend on the processing

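Of the recomputed counts and medians, 248 stayed and 44 did not stay within 1.5 times the count or within the technical SD of the median. The count of UHRF1 and DNMT3B as 2-fold lower with AZA in MDS-L cells became 0 under quantile normalization and in the authors' value table, 1 under normexp and spike-in scaling and 4 under median scaling, where 25.8% of all genes were 2-fold lower. Of all genes, 5.10% were 2-fold lower under quantile normalization, 5.11% in the authors' table, 2.81% under normexp and 4.33% under spike-in scaling. The count of 2 genes 2-fold higher in MDS-L/CDA than in MDS-L cells with AZA became 1 under quantile normalization, median scaling, spike-in scaling, the Z score and in the authors' table, and 0 without scaling and under normexp. Of all genes, 4.06% were 2-fold higher there under quantile normalization, 4.67% under median scaling and 4.36% under spike-in scaling. The share was 3.996% in the authors' table, 0.887% without scaling and 0.880% under normexp. The count was 4 with no filter on dim probes, and 4 at 1.5-fold, where 21.5% of all genes were higher. At 1.5-fold, 1 gene was lower with AZA in MDS-L/CDA cells (TDG), where 8.98% of all genes were. Between the lines in vehicle 1 was higher (TET1), where 7.36% of all genes were. With no filter on dim probes, 1 was higher with AZA in MDS-L/CDA cells (TET3). When any probe of a gene could count, 1 gene (DNMT3A) was lower in MDS-L/CDA cells in vehicle, and 1 with AZA. No share of all genes is given here for the Z score, for no filter or for any probe. The counts under those rules therefore have no background to be read against.

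Median scaling, which centres on probes mostly below background, moved the median of the 8 genes to -1.003 for AZA in MDS-L cells and to -0.39 between the lines in vehicle. Without scaling that last median was -0.24, and the one with AZA 0.0875. Median scaling also moved the list medians in MDS-L cells to -0.91 for DNMT partners, -0.49 for methyl-CpG readers, -0.73 for TET cofactors, -0.82 for base excision repair, -0.76 for S-adenosylmethionine supply and -1.25 for S phase genes. Of the 110 distinct list genes, not all of them measured, 11 were 2-fold lower and 1 (NEIL1) higher with AZA in MDS-L cells. Of all genes measured, 5.89% were 2-fold lower and 4.42% 2-fold higher. The lower count was 7 under quantile normalization and in the authors' table, 47 under median scaling and 33 at 1.5-fold, and the higher count 0 under median scaling, normexp and the Z score, 3 with dim probes at their bound and 4 with no filter. Of all genes, 25.8% were 2-fold lower under median scaling, and 18.3% were lower at 1.5-fold. In MDS-L/CDA cells, 2 list genes were higher and 0 lower, where 2% and 2.82% of all genes were. The higher count was 1 under normexp and with the mean of a gene's probes, and the lower count 1 under normexp, with no filter or with any probe, and 6 at 1.5-fold, where 8.98% of all genes were lower. The cause of these changes was not tested, beyond the shift of all genes that each scaling sets. Of all genes called 2-fold with AZA in MDS-L cells, 42.9% were higher, against 56.0% under spike-in and 6.87% under median scaling, and in MDS-L/CDA cells 41.5%, against 25.3% under normexp and 25.5% without scaling. Between the lines the share was 42.1% in vehicle, against 2.91% to 47.0% under the other scalings, and 57.6% with AZA, against 7.47% to 52.8%.

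The groups hold 1 array each and carry no replicate numbers. No paired analysis was possible because no result comes from a test. Dim signal limits TET1, TET2 and TET3, where a probe below background gives a bound only.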
